A study of Rattus norvegicus with 30 samples.

Results

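Kupffer cells are the resident macrophages of the liver, and 10 genes that mark them or macrophages at large were followed: Csf1r, Aif1, Cd68, C1qa, C1qb, C1qc, Cd163, Clec4f, Marco and Vsig4. The genes were chosen by name, with earlier results of these data known, and their probe sets were taken from the platform's gene symbols. Of the 10 genes, 8 had a probe set naming them alone, with 9 probe sets in all out of 31099 on the array. Marco and Vsig4 were not analysed here. Aif1 had 2 probe sets, and the brighter one stood for the gene; every other gene had 1.

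Liver RNA came from 30 Wistar Han rats in 6 groups of 5. Pups of both sexes were sampled on postnatal day 22, and grown males at week 13 of the study, each as controls and as PBDE animals. The PBDE animals received DE-71, a commercial mixture of polybrominated diphenyl ether flame retardants, at 50 mg/kg in corn oil by gavage, and controls, which the labels also call untreated, received 0 mg/kg. All 6 groups descended from dams that were gavaged with their dose in 5 ml/kg between gestation day 6 and postnatal day 21, and the pups themselves were dosed up to that day. After weaning the adults were dosed on 5 days per week. No dam gave more than 1 of the pups, and within a dose group no dam gave more than 1 of the adults. The animals carried no transgene or deletion named in the labels. Each sample was a section of whole liver, so fewer macrophages and less RNA of a marker per macrophage cannot be told apart.

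Values are log2 intensities after RMA, the authors' background correction and normalization for Affymetrix arrays, and 1 log2 unit is a doubling of the signal. Array medians ran from 5.72 to 5.77. The single lowest value of any of the 8 representative marker probe sets was 6.92, in an adult PBDE liver, so every marker lay above the array median on every array. The sex labels matched the arrays: Eif2s3y, a Y-linked gene, read 9.14 to 9.83 in the 20 males and 3.30 to 3.82 in the 10 females, and Xist, the RNA of the inactive X chromosome, read 3.08 to 3.67 and 10.7 to 12.2. Array names fall into 2 sets of 15. The first set holds the control pups of both sexes and the male PBDE pups, and the second holds female PBDE pups and both adult groups. The dose comparisons of male pups and of adults each lie within 1 set. The dose comparison of female pups, the sex comparison of PBDE pups, the interaction of sex and dose and both age comparisons of males cross the sets, so set and group cannot be told apart there.

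Kupffer cells line the liver sinusoids and take up particles, dying cells and old erythrocytes from the blood. They depend on signals through the CSF1 receptor, and they are a major source of complement C1q, which tags targets for clearance. Clec4f, a C-type lectin, is largely restricted to Kupffer cells in rodents, while Aif1, Cd68 and Csf1r are shared with other macrophages and monocytes.

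The promoters of 4 markers are shown because PU.1, the transcription factor that drives many macrophage genes, binds purine-rich letters with a GGAA core. They are the 250 bases before the gene's start, 5′ to 3′ on the gene's strand, from RefSeq on the build GRCr8. Of the 10 markers 8 were in that table. Letters matching GAGGAA or GGAAGT on either strand are in capitals. C1qa lies before its start at chr5:154419934-154420183 (minus strand), C1qb at chr5:154407828-154408077 (minus), Clec4f at chr4:117696408-117696657 (minus) and Cd68 at chr10:54882442-54882691 (minus).
C1qa: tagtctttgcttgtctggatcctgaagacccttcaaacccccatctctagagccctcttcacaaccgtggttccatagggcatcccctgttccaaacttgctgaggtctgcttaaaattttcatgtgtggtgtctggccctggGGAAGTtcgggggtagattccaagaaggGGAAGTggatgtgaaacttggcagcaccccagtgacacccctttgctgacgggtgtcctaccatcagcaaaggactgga
C1qb: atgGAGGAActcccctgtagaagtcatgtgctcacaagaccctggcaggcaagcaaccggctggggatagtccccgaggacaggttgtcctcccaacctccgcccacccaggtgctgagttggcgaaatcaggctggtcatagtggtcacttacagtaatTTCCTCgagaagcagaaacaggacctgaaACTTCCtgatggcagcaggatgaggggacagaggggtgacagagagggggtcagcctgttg
Clec4f: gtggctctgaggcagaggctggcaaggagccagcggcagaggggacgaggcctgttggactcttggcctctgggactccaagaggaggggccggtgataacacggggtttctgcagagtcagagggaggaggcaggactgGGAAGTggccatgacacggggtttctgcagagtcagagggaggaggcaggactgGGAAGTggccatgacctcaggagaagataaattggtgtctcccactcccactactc
Cd68: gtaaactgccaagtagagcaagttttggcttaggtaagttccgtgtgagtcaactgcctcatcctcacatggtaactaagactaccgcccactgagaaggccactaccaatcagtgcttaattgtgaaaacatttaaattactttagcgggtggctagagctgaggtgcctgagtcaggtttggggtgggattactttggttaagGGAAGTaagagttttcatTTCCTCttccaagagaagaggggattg

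C1qa held GGAAGT at 2 places, at positions -107 and -79 counted from the gene's start. C1qb held GAGGAA at 2 places and GGAAGT at 1. Clec4f held GGAAGT at 2 places inside a stretch that is repeated in the window. Of the 6 measured markers with a promoter in the table, 5 held either motif, and Cd163 held neither. The windows of Csf1r and Cd163, not shown, reach into the gene as listed. That of Csf1r is chr18:56834129-56834378 (plus strand), and the listed gene starts at 56834152. That of Cd163 ends at 158770773 on chromosome 4 (plus strand), and the listed gene starts at 158770751. Among all 33469 promoters of this length in the table, 36.7% held either motif, 23.3% held GAGGAA and 19.2% held GGAAGT. The other motif searched was TGANTCA, the AP-1 type of site, which 6.34% of all promoters and only Cd68 among the measured markers held. These matches describe the letters and say nothing of binding. On chromosome 5 C1qb, C1qc and C1qa are consecutive entries of the gene table, in that order.

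The main question of the design is what DE-71 did to the liver of each kind of animal, and here it was asked of the macrophage markers. In male pups Aif1 and C1qa fell with DE-71, to 1.71-fold and 1.63-fold lower signal. In adult males Aif1 fell 1.56-fold. In female pups no marker passed the threshold. All 8 markers had a lower mean in the PBDE group in each of the 3 comparisons. The threshold was an adjusted p of 0.01 in pups and 0.05 in adults, from limma with Benjamini-Hochberg adjustment over 31042 probe sets.

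**Figure D1:**
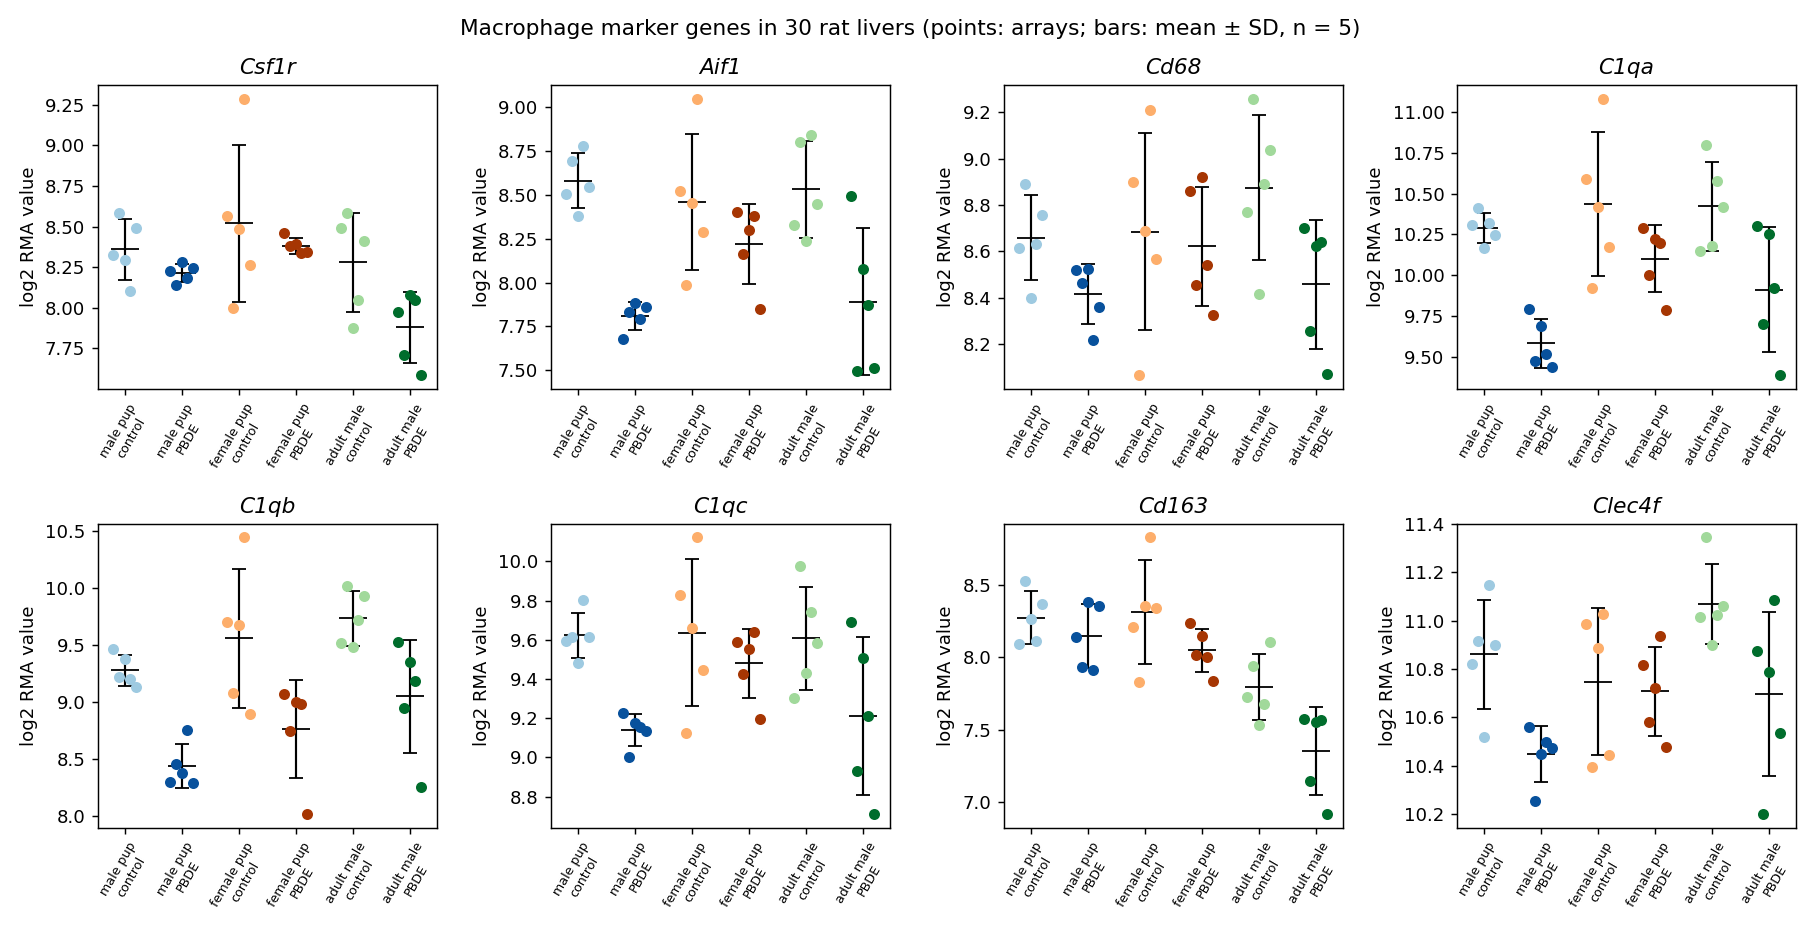
Log2 RMA value of the 8 measured macrophage markers (1 panel each, each with its own y axis) in the 6 groups on the x axis; points are single livers, and bars are the mean ± SD of 5. The male PBDE pups lie below every male control pup for Aif1, C1qa, C1qb and C1qc, and the female control pups are the most spread group for most markers.

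Aif1 encodes IBA1, an actin-binding protein of macrophages and microglia that takes part in membrane ruffling. In male control pups it read 8.51, 8.69, 8.38, 8.78 and 8.55, and in male PBDE pups 7.68, 7.83, 7.88, 7.79 and 7.86. No PBDE value reached the lowest control. The difference was -0.77 ± 0.17 (log2, SE; n = 5 and 5), with a 95% interval of -1.12 to -0.43 and an adjusted p of 0.00276 (limma). Adult controls read 8.33, 8.80, 8.23, 8.84 and 8.45, and adult PBDE males 8.49, 7.50, 8.08, 7.87 and 7.51. There 4 of the 5 PBDE livers lay below all controls, and replicate 1 lay among them. The adult difference was -0.64 ± 0.17 (limma adjusted p = 0.0323). This call was lost when any of adult PBDE replicates 2, 4 and 5 or control replicates 2 and 4 was left out, with limma adjusted p from 0.0666 to 0.110. It was also lost when only the adult groups entered the fit, at an adjusted p of 0.155.

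In female pups Aif1 differed less. Female controls read 8.52, 7.99, 8.45, 9.05 and 8.29, and female PBDE pups 8.40, 8.16, 8.30, 8.38 and 7.85. The groups overlapped, and the difference was -0.24 ± 0.17 (limma adjusted p = 0.470). The second Aif1 probe set had a mean of 5.65 over all arrays, below the array medians. It differed by 0.14, 0.03 and 0.07 in male pups, female pups and adults, with limma adjusted p of 0.362, 0.909 and 0.765. The fall of Aif1 was seen on 1 of its 2 probe sets.

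C1qa, C1qb and C1qc encode the A, B and C chains, which assemble into C1q, the recognition molecule of the classical complement pathway. C1qa in male control pups read 10.30, 10.41, 10.17, 10.32 and 10.25, and in male PBDE pups 9.79, 9.48, 9.69, 9.52 and 9.44. The groups did not overlap. The difference was -0.71 ± 0.17 (limma adjusted p = 0.0058). That p lay close to the threshold: it missed 0.01 in 8 of the 10 fits that each left out 1 male pup (replicates 1, 2, 4 and 5 of the controls and 2 to 5 of the PBDE pups), where it ran from 0.0102 to 0.0173.

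C1qb had the largest mean difference of any marker in each of the 3 dose comparisons in the model of all 6 groups, and passed in none of them. With an RNA quality covariate, described further on, it was smaller than that of Aif1 in both male comparisons. Male control pups read 9.46, 9.21, 9.38, 9.20 and 9.13, and male PBDE pups 8.30, 8.45, 8.38, 8.76 and 8.29, again with no overlap. The difference was -0.84 ± 0.23 (limma adjusted p = 0.0154). With only the male pup groups in the fit, which then takes its spread from those 10 arrays alone, its adjusted p was 3.08e-04 and that of C1qc 0.00176, so that 4 markers fell instead of 2. Female controls read 9.70, 9.08, 9.67, 10.44 and 8.89, and female PBDE pups ran from 8.02 to 9.07 with a median of 8.98. The lowest control lay inside the PBDE range, and the difference was -0.80 ± 0.23 (limma adjusted p = 0.026). Adult controls read 9.52, 10.02, 9.49, 9.72 and 9.93, and adult PBDE males 9.53, 8.94, 9.35, 9.18 and 8.25. Replicate 1 of the PBDE adults again lay among the controls, and the difference was -0.68 ± 0.23 (limma adjusted p = 0.104).

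C1qc in male pups ran from 9.48 to 9.80 in controls and reached at most 9.23 with DE-71, with no overlap. The difference was -0.48 ± 0.16 (limma adjusted p = 0.0466), short of 0.01. It was -0.16 ± 0.16 in female pups and -0.40 ± 0.16 in adults, with overlapping groups. C1qa differed by -0.34 ± 0.17 in female pups (limma adjusted p = 0.265) and by -0.51 ± 0.17 in adults (0.098).

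Csf1r encodes the receptor of CSF1 and IL34, on which macrophage survival depends. Its male pup values ran from 8.10 to 8.59 in controls and from 8.14 to 8.28 with DE-71, and all 5 PBDE values lay within the control range. The difference was -0.14 ± 0.16 in male pups and -0.14 ± 0.16 in female pups. In adults it ran from 7.87 to 8.58 in controls and from 7.59 to 8.08 with DE-71, a difference of -0.40 ± 0.16 (limma adjusted p = 0.174). Cd68, a lysosomal membrane glycoprotein of phagocytes, differed by -0.24 ± 0.17 in male pups, -0.06 ± 0.17 in female pups and -0.42 ± 0.17 in adults. None of these passed, and the 95% intervals of Cd68 in pups reached from -0.58 to 0.28.

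Cd163 encodes the receptor that clears haemoglobin bound to haptoglobin. Male control pups read 8.09, 8.53, 8.27, 8.12 and 8.37, and male PBDE pups 8.14, 7.93, 8.38, 7.92 and 8.36. The groups overlapped almost fully, and the difference was -0.13 ± 0.15 (limma adjusted p = 0.677). In adults the controls read 7.72, 7.94, 7.53, 7.67 and 8.11, and the PBDE males 7.58, 7.15, 7.55, 7.57 and 6.92. That difference was -0.44 ± 0.15 (limma adjusted p = 0.107). Clec4f differed by -0.41 ± 0.14 in male pups (adjusted p = 0.058), by -0.04 ± 0.14 in female pups and by -0.37 ± 0.14 in adults (adjusted p = 0.162). In male pups only 1 control, at 10.52, lay within the PBDE range of 10.25 to 10.56.

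**Figure D2:**
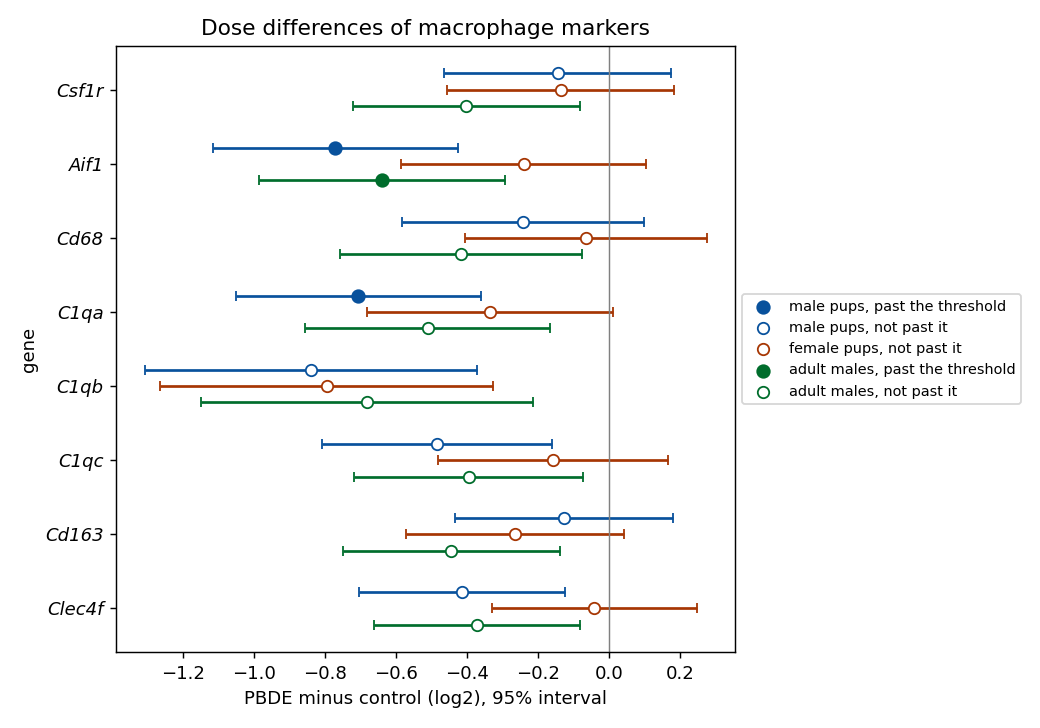
PBDE minus control difference (x axis, log2) of each marker (y axis) in male pups, female pups and adult males; points are limma estimates and bars their 95% intervals, filled where the adjusted p passed the threshold. All 24 points lie below 0, and 3 of them are filled: Aif1 and C1qa in male pups and Aif1 in adults.

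Counted over the 8 measured markers, 2 fell in male pups and none rose. Among all 14217 genes 3.26% fell there. In male pups 4 markers (Aif1, C1qa, C1qb and C1qc) had every PBDE liver below every control, against 5.13% of genes. The markers' median difference was -0.45, and that of all genes was 0.02. In female pups 0 of 8 passed in the limma fit and 1 had an unadjusted p under 0.05, where 2.18% of genes fell and 20.3% of probe sets had such a p in either direction; the median difference was -0.20 against 0.02. In adults 1 of 8 fell and all 8 had an unadjusted p under 0.05, where 2.04% of genes fell and 16.4% of probe sets had such a p in either direction. The adult median difference was -0.43 against 0.01. In adults no marker separated the groups fully, against 2.15% of genes lower without overlap. The markers were chosen with earlier results of these data known, so their counts stand beside these shares without a test. Within groups the markers also varied together over the same livers (median Pearson r 0.73, described further on). The 8 low p in adults are therefore not 8 separate results.

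A comparison added after the values were seen took the mean of the male pup and adult male dose differences, at an adjusted p of 0.01. There 5 of 8 markers fell: Aif1 by 0.71 ± 0.12 on the log2 scale (limma adjusted p = 1.67e-04), C1qa by 0.61 ± 0.12 (8.70e-04), C1qb by 0.76 ± 0.16 (0.00188), C1qc by 0.44 ± 0.11 (0.00878) and Clec4f by 0.39 ± 0.10 (0.00878). Among all genes 3.85% fell in that comparison. Cd68, Cd163 and Csf1r did not pass, at -0.33, -0.29 and -0.27. Leaving out 1 liver at a time left 3 to 5 markers past the threshold, and C1qc and Clec4f each missed it in 16 of those 20 fits.

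A measure of RNA quality had a higher mean in each PBDE group, and its part in the results was not tested beyond the covariate given here. On this platform labelling starts at the 3′ end of the RNA, and the excess of 3′ over 5′ signal of the Gapdh control probe sets grows as RNA breaks. In male pups it averaged 2.09 ± 0.65 (SD, n = 5) with DE-71 and 1.61 ± 0.33 without (two-sided exact permutation p = 0.198). It was 1.93 ± 0.30 and 1.26 ± 0.50 in female pups (exact p = 0.0397), and 1.17 ± 0.62 and 0.62 ± 0.18 in adults (exact p = 0.0238). The Actb control probe sets gave exact p of 0.341, 0.0317 and 0.0714. Adjusted over these 6 tests the lowest p was 0.0794, and 5 against 5 arrays allow no p under 0.00794.

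C1qb was the marker that moved most with this measure. Within groups, over 30 arrays, its Pearson r with the Gapdh difference was -0.75 (permutation p = 1e-05, the smallest that 100000 permutations can give) and its Spearman rho was -0.70 (permutation p = 3e-05). Adjusted over the 8 markers these were 8e-05 and 2.4e-04. The r was -0.68 in the first array-name set, -0.84 in the second, -0.82 without the 2 arrays farthest from the median and -0.66 without adult PBDE replicate 5. The 2 farthest arrays were male PBDE pup replicates 1 and 5, with Gapdh differences of 2.96 and 2.57. For the other 7 markers r ran from -0.39 (C1qa) to -0.14 (Clec4f) and rho from -0.32 to -0.12, and none passed after adjustment over the 8 (lowest permutation p 0.175 for r and 0.318 for rho). For these 7 markers r ran from -0.33 to 0.03 in the first set (Csf1r and Cd163) and from -0.73 to -0.30 in the second (Cd163 and Clec4f). Without adult PBDE replicate 5 it ran from -0.27 (Csf1r) to -0.07 (Clec4f), with C1qa at -0.21, C1qc at -0.15 and Cd163 at -0.098. Without the 2 arrays farthest from the median, r of these 7 markers ran from -0.53 (C1qa) to -0.25 (Clec4f). For the mean of the 8 markers r was -0.44 over all arrays, -0.55 without those 2 arrays and -0.29 without adult PBDE replicate 5. With the Gapdh difference as a covariate, the dose difference in male pups was -0.67 ± 0.17 for Aif1 (limma adjusted p = 0.00957), -0.59 ± 0.17 for C1qa (0.02) and -0.54 ± 0.17 for C1qb (0.0344). With that covariate Aif1 alone fell in male pups and no marker fell in adults, where Aif1 differed by -0.52 ± 0.17 (0.124), C1qa by -0.38 ± 0.17, Cd163 by -0.36 ± 0.16 and C1qb by -0.34 ± 0.17. In female pups C1qb then differed by -0.37 ± 0.17 (limma adjusted p = 0.244). In the comparison of males of both ages only Aif1 then passed, at -0.59 ± 0.13 (limma adjusted p = 0.00277). The other markers that had passed there differed by -0.49 ± 0.13 for C1qa (0.0125), -0.44 ± 0.13 for C1qb (0.024), -0.34 ± 0.12 for C1qc (0.0727) and -0.36 ± 0.11 for Clec4f (0.0432).

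**Figure D3:**
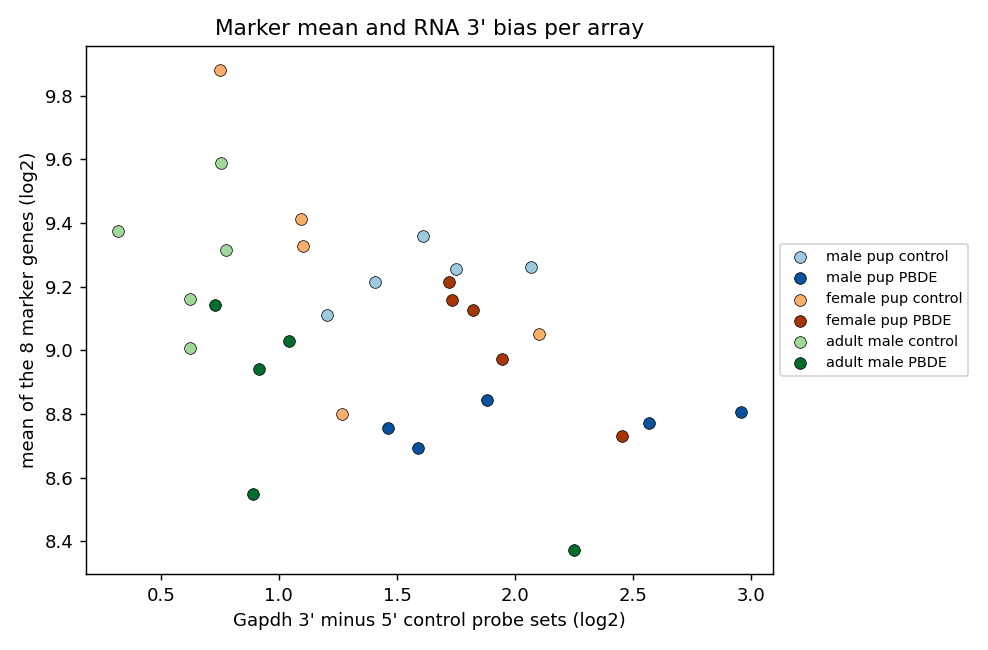
Mean of the 8 markers per liver (y axis, log2) against the 3′ minus 5′ difference of the Gapdh control probe sets (x axis, log2), with 1 point per array coloured by group. Male PBDE pups lie at marker means of 8.69 to 8.84 and male control pups at 9.11 to 9.36, and the lowest point of all, at 8.37, is an adult PBDE liver with a Gapdh difference of 2.25.

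The marker mean of a liver was 9.24 ± 0.09 (SD, n = 5) in male control pups and 8.77 ± 0.06 in male PBDE pups. It was 9.29 ± 0.41 and 9.04 ± 0.20 in female control and PBDE pups, and 9.29 ± 0.22 and 8.81 ± 0.33 in adult controls and PBDE adults. The 5 livers of either male pup group lay closer together than those of the other 4 groups. Adult PBDE replicate 5 had both the largest Gapdh difference among adults, 2.25, and the lowest marker mean of any liver, 8.37. Without adult PBDE replicates 2 and 5, the 2 lowest of that group, Aif1 differed by -0.38 in adults (limma adjusted p = 0.348) and no marker passed.

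Within groups the markers varied together from liver to liver. Female control replicate 4 was the highest of its group in 8 of 8 markers, and replicate 2 was the lowest in 7 of 8. Female PBDE replicate 5 was the lowest of its group in 7, and adult PBDE replicate 5 in 6. Over the deviations of 30 arrays from their group means, all 28 pairs of markers had a positive Pearson r, with a median of 0.73. The closest pair was C1qa and C1qc, at 0.96, followed by Aif1 and C1qc at 0.93. The loosest was Cd163 and Clec4f, at 0.54. The median r was 0.77 in the first array-name set and 0.76 in the second, and 0.65 without the female control replicates 2 and 4 and adult PBDE replicate 5. These values share arrays, normalization and RNA quality, and describe the set without a test.

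**Figure D4:**
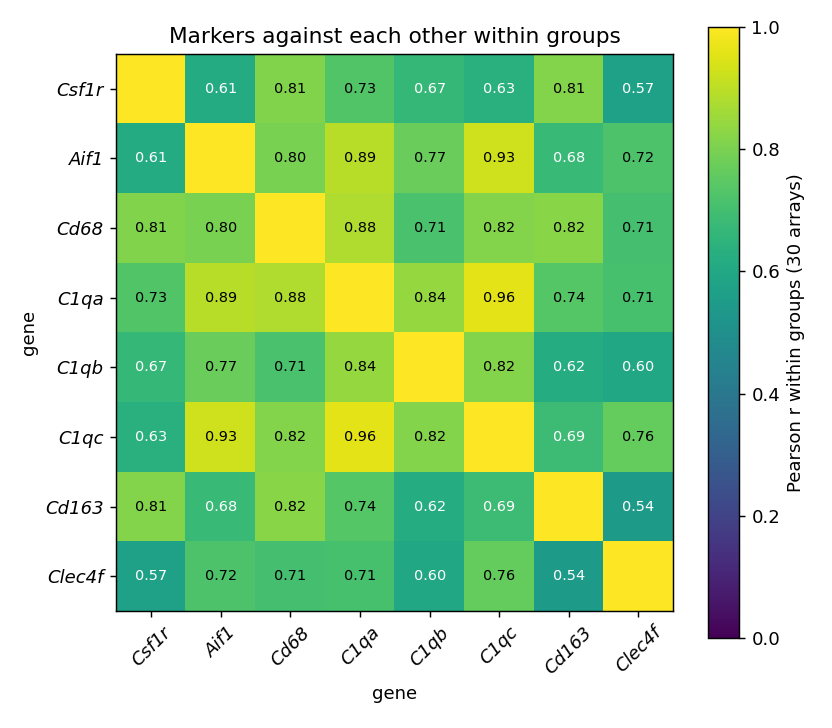
Pearson r between each pair of the 8 markers (both axes: gene), from the deviations of 30 arrays from their group means, with the value in each cell. All pairs are positive, from 0.54 for Cd163 with Clec4f to 0.96 for C1qa with C1qc.

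Other genes followed the same livers. Against the mean of the 8 markers within groups, the most alike of 14209 other genes were Ctss (r = 0.94), Anxa3 (0.90), Ccl6 (0.90), Cybb (0.89), Fcer1g (0.89), Cyba (0.88), Fcna (0.88) and Axl (0.88). Ctss encodes the lysosomal protease cathepsin S, Cybb and Cyba the membrane subunits of the phagocyte NADPH oxidase, Fcer1g the signalling chain of Fc receptors, and Axl a receptor for dying cells. An r of at least 0.7 was reached by 46 of these genes, 0.324%. Of the 8, Fcna, which encodes a ficolin, fell with DE-71 in male pups, by 0.87 ± 0.19 on the log2 scale (limma adjusted p = 0.00287), and in adults, by 0.78 ± 0.19 (0.0198). Ctss fell in adults, by 0.56 ± 0.16 (limma adjusted p = 0.0462), and differed by -0.29 ± 0.16 in male pups (0.272). None of the 8 passed in female pups. Of all genes 3.26% fell in male pups, 2.04% in adults and 2.18% in female pups. The 8 genes were picked for following the markers over the same livers, so their calls are not separate from those of the markers.

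Other genes of resident macrophages were read from a list of 27, of which 25 had a probe set. In male pups 1 of 25 rose and 1 fell, where 4.23% of all genes rose and 3.26% fell. Of the 25, 19 had a lower PBDE mean, and the median difference was -0.19. The one that rose was Cd14, the lipopolysaccharide co-receptor, by 0.63 ± 0.14 (limma adjusted p = 0.00316). The one that fell was Slc40a1, the iron exporter ferroportin, by 0.40 ± 0.09 on the log2 scale (0.00417). Slc40a1 also fell in female pups, by 0.39 ± 0.09 (0.0052), and in adults, by 0.32 ± 0.09 (0.0468). It was the only gene of the list that passed in female pups, where 2.18% of all genes fell and the list median was -0.03. In adults Slc40a1 and Ctss fell, where 2.04% of all genes fell. There 22 of 25 had a lower PBDE mean and the median was -0.25. In the added comparison of males of both ages 4 of 25 fell and none rose, where 3.85% of all genes fell and 4.45% rose.

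The CSF1 receptor axis and the macrophage transcription factors, 15 measured genes, held no call in male pups or adults. In male pups the smallest adjusted p belonged to Nr1h3, which encodes the liver X receptor alpha (0.34 ± 0.10, limma adjusted p = 0.0248), and Zeb2 (-0.41 ± 0.12, 0.0259). In the added comparison of males of both ages Id3 fell (-0.55 ± 0.14, limma adjusted p = 0.00868) and Nr1h3 rose (0.30 ± 0.07, 0.00461). Of all genes 3.85% fell and 4.45% rose in that comparison. In female pups Cebpb, a transcription factor of myeloid cells and hepatocytes, rose by 0.58 ± 0.12 (0.00266). It was the only gene of the 15 to pass there, where 3.95% of all genes rose. None of 22 genes of monocytes and inflammatory macrophages passed in male pups, female pups or adults, with medians of 0.00, 0.04 and -0.06. In female pups Il1b, the cytokine interleukin-1 beta, differed by -0.50 ± 0.15 (limma adjusted p = 0.0351).

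MHC class II genes, which present peptides to helper T cells, had mostly higher PBDE means in pups, and none passed. Of 8 genes 6 had a higher PBDE mean in male pups and 7 in female pups, with medians of 0.42 and 0.57, and 0 passed in any dose comparison. In female pups RT1-Da, a class II alpha chain, differed by 0.97 ± 0.30 (limma adjusted p = 0.0386) and Cd74, the invariant chain, by 0.91 ± 0.28 (0.0353). In adults 4 of 8 were higher and 4 lower. Genes of the same family share sequence, so signal between class II probe sets may be shared.

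C1q acts through further complement proteins, most of them made by hepatocytes. Of 10 measured genes of the classical pathway and its inhibitors, 0 passed in male pups and in adults. C1r, a protease that binds C1q, differed by 0.53 ± 0.15 in male pups (limma adjusted p = 0.0167), and C4bpb, an inhibitor of C4, by -0.40 ± 0.12 (0.034). In female pups C4bpa and C4bpb fell, by 0.44 ± 0.10 (0.00424) and 0.54 ± 0.12 (0.00503) on the log2 scale. Of 8 genes of haemoglobin and haem clearance, the haem pathway being what Cd163 feeds, Blvrb (biliverdin reductase B) rose and Slc40a1 fell in all 3 comparisons. Blvrb rose by 0.67 ± 0.08 in male pups, 0.70 ± 0.08 in female pups and 0.38 ± 0.08 in adults (limma adjusted p at most 0.00824). Of all genes 4.23%, 3.95% and 1.86% rose in these comparisons, and 3.26%, 2.18% and 2.04% fell.

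**Figure D5:**
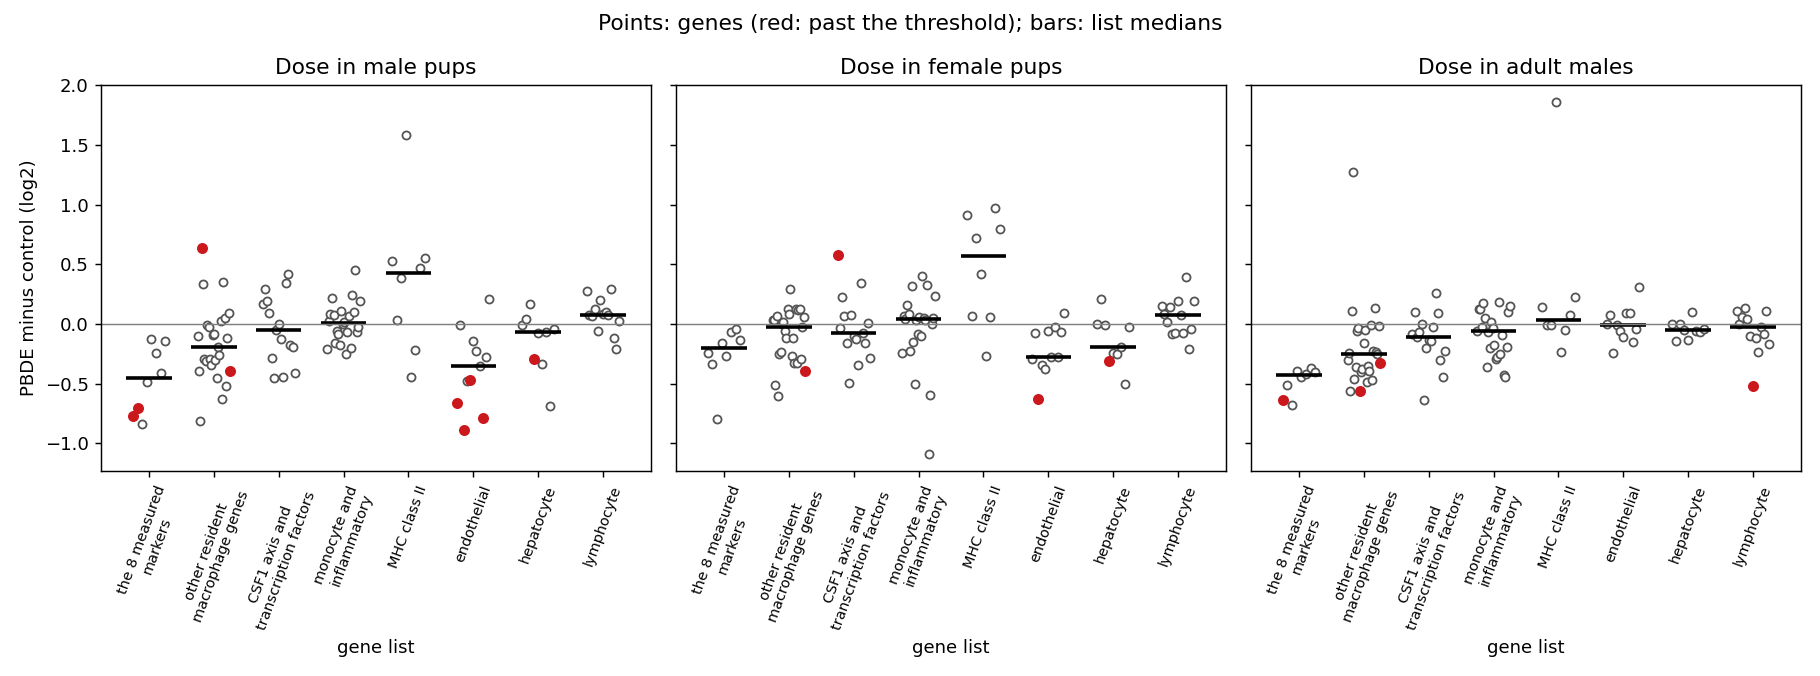
PBDE minus control difference (y axis, log2) of each gene in 8 gene lists (x axis) in male pups, female pups and adult males; points are genes, filled red past the threshold, and bars are list medians. The 8 markers lie below 0 in each panel, and the endothelial list lies mostly below 0 in pups but around 0 in adults.

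Endothelial markers, among them genes of the sinusoidal cells that share the sinusoid wall with Kupffer cells, moved with the macrophage markers in male pups. The list is of endothelium at large and also holds Pecam1 and Vwf. Of 11 measured genes 4 fell, where 3.26% of all genes fell, and 10 had a lower PBDE mean. Fcgr2b, an inhibitory Fc receptor of sinusoidal endothelium and of some immune cells, fell by 0.89 ± 0.12 on the log2 scale (limma adjusted p = 5.08e-06). Stab2 and Lyve1, both hyaluronan receptors, fell by 0.79 ± 0.13 (1.75e-04) and 0.47 ± 0.11 (0.0071), and Emcn, an endothelial sialomucin, fell by 0.66 ± 0.12 (3.52e-04). Their part in the result for the macrophage markers was not tested. The summed linear signal of the 11 genes ran from 7612 to 9647 in male controls and from 5437 to 6734 in male PBDE pups. That of the 8 macrophage markers ran from 5294 to 6415 and from 3905 to 4464.

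In female pups only Fcgr2b among the endothelial genes fell, by 0.63 ± 0.12 (limma adjusted p = 5.15e-04), where 2.18% of all genes fell. In adults none of the 11 passed, 6 had a lower PBDE mean and the median was -0.01, while the macrophage median was -0.43. The adult sums overlapped for the endothelial genes (5899 to 7395 in controls and 5577 to 7408 with DE-71). The dose difference of Fcgr2b and of Emcn was smaller in adults than in male pups, by 0.64 ± 0.16 (limma adjusted p = 0.0382) and 0.67 ± 0.17 (0.0335). In the added comparison of males of both ages 3 of the 11 endothelial genes fell and none rose, where 3.85% of all genes fell. They were Fcgr2b (-0.57 ± 0.08), Stab2 (-0.47 ± 0.09) and Emcn (-0.33 ± 0.08).

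Among 9 hepatocyte genes Cps1, the first enzyme of the urea cycle, fell by 0.29 ± 0.07 in male pups (limma adjusted p = 0.0078) and by 0.31 ± 0.07 in female pups (0.00592), and none passed in adults. The list medians were -0.06, -0.19 and -0.05. Alb had group means of 15.43 to 15.44, next to the highest value on any array, 15.46, where a change could hardly show. Among 13 lymphocyte genes Cd8a alone passed, falling by 0.52 ± 0.13 in adults (0.03). Among 12 stellate cell and fibroblast genes Rgs5 rose in male pups and adults (0.68 ± 0.16 in both), Acta2 fell in male pups, and Lrat and Pdgfrb fell in female pups. Among 6 measured cholangiocyte genes only Epcam, a cholangiocyte and progenitor marker, passed. It rose in all 3 comparisons, by 1.07 ± 0.18, 0.92 ± 0.18 and 1.13 ± 0.18. Krt19 and Spp1 had lower PBDE means in all 3, Cftr had higher ones, and Krt7 and Muc1 differed in direction between comparisons. None of 4 neutrophil or 8 erythroid genes passed. Over the 6 groups the neutrophil list averaged 4.12 to 4.25 and the lymphocyte list 4.84 to 5.00, below the array medians. The erythroid genes Rhag, Gata1 and Epb42 also had means below those medians in every group. For such dim probe sets a missing call says little about the cells. Among all genes 4.23%, 3.95% and 1.86% rose in male pups, female pups and adults, and 3.26%, 2.18% and 2.04% fell.

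The design also asked whether the dose response differed between sexes. No marker passed in the interaction of sex and dose in pups, where 0 of 31042 probe sets passed in the limma fit (0%) and 1576 had an unadjusted p under 0.05. The largest interaction was that of Aif1, whose difference was 0.53 ± 0.24 higher in females than in males (95% interval 0.04 to 1.02, limma adjusted p = 0.953). That of C1qb was 0.04 ± 0.32, with an interval of -0.62 to 0.71. The interval of Aif1 includes a difference as large as the male response itself. The female comparison crosses the array-name sets, and its control group was the most spread, with marker means from 8.80 to 9.88.

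Between the sexes, no marker passed in control pups or in PBDE pups in limma, where 6 and 8 genes in all passed (0.0422% and 0.0563%). Among the 8 markers 0 had an unadjusted p under 0.05 in control pups and 3 had one in PBDE pups, against 8.24% and 4.78% of probe sets. In controls the female minus male difference ran from -0.12 (Aif1) to 0.28 (C1qb). In PBDE pups it ran from -0.10 (Cd163) to 0.52 (C1qa). Csf1r was the only marker whose sexes did not overlap: the 5 female PBDE pups read 8.34 to 8.46 and the 5 males 8.14 to 8.28, a difference of 0.17 ± 0.16 (limma adjusted p = 0.9995). Among all genes 1.06% separated the sexes in this way.

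The remaining question was age, and whether the dose response of males differed with it. Cd163 was lower in adult control males than in male control pups, by 0.48 ± 0.15 on the log2 scale (limma adjusted p = 0.0195). It was the only one of the 8 to pass, where 29.5% of genes passed in either direction and 18.6% were lower in adults. That call was lost without male control pup replicate 2 or adult control replicate 3 (limma adjusted p = 0.0636 and 0.0638). In PBDE males the adults were lower in Cd163 by 0.80 ± 0.15 (3.67e-04), with no overlap; 18.8% of genes passed and 9.69% were lower without overlap. C1qb was higher in adult controls than in every control pup, 9.49 to 10.02 against 9.13 to 9.46 (7.69% of genes did so), with a difference of 0.46 ± 0.23 (0.162). In PBDE males it was 0.61 ± 0.23 higher in adults (0.0725), and all adult Csf1r values lay below the pups (-0.34 ± 0.16, 0.164). The other markers had age differences between -0.08 and 0.33.

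Gapdh differences were 1.61 ± 0.33 in male control pups and 0.62 ± 0.18 in adult controls, so this measure also moved with age. With it as a covariate the age difference of C1qb was -0.17 ± 0.19 in controls (limma adjusted p = 0.674) and 0.03 ± 0.19 in PBDE males (0.951), and Cd163 was lower in adults in both (-0.63 ± 0.18, 0.0147, and -0.94 ± 0.17, 5.55e-04). Control and PBDE age comparisons both cross the array-name sets, so age and set cannot be told apart. For the interaction of age and dose no marker passed, against 2.48% of genes. Values ran from -0.32 ± 0.21 for Cd163, a larger reduction in adults, to 0.20 ± 0.24 for C1qa, with 95% intervals from -0.75 to 0.82. The 2 dose differences of this contrast each lie within 1 array-name set.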

How the data were processed

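Per the labels, 50 ng of total RNA per liver was labelled from the 3′ end in 2 cycles and hybridised to Affymetrix Rat Genome 230 2.0 arrays. The authors deposited log2 values made with RMA, per the submitters' processing notes; the software version is not given in the sources used here. Of 31099 probe sets, 57 control probe sets were kept for quality measures and 31042 tested. Arrays give no read depth, so precision rests on 5 livers per group.

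The platform annotation tied 20826 probe sets to 1 gene, 436 to several and 9780 to none. Each of 14217 genes was read from the probe set naming it alone with the highest mean. One model with 6 group means was fitted in limma 3.58.1 (R 4.3.3), with Benjamini-Hochberg adjustment over all 31042 probe sets and thresholds of 0.01 in pups and 0.05 in adults and age comparisons, and checked on simulated data. Correlations used deviations from group means. Single quality values were compared by exact permutation. Groups came from the labels. The replicate numbers name no shared dam, and the arrays of the same number did not pair.

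Named were all markers, up to 4 called genes per other list with the largest difference in a comparison described (or up to 2 with the smallest adjusted p where none passed), and the 8 genes most like the markers' mean. Markers and lists were chosen with earlier results of these data known. Alternatives were the compared groups alone, a replicate block, another quantile normalization, an RNA quality covariate, the other Aif1 probe set and each liver left out.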

Additional observations from a re-analysis of the deposited data

How the results depend on the processing

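Across all alternatives except the other Aif1 probe set, all 264 dose differences of the 8 markers in male pups and adults stayed below 0. These refits share the same livers, so the values are not separate checks. Aif1 in male pups passed in each of these alternatives. With the compared groups alone, 4 markers passed in male pups, 0 in adults, and 2 in each age comparison of males; probe sets called numbered 269 in adults and 8 for sex in PBDE pups. The replicate block, whose numbers did not pair the arrays (mean r 0.00417 for the same number, -9.06e-04 for others, 18 of 75 pairs above 0.1), gave 2 markers for age in PBDE males, and C1qb in male pups passed (limma adjusted p = 0.00593). With the 3′ minus 5′ covariate 1 marker passed in male pups, 0 in adults and 1 in males of both ages, and age called 4305 probe sets in controls and 2875 in PBDE males. In alternatives chosen after seeing the data, without adult PBDE replicates 2 and 5 the adult count was 494 probe sets and 0 markers, and without female control replicates 2 and 4 the female count was 738.

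Reversals concerned values that had not passed, except those of Aif1. With the covariate they were, for dose in female pups, Csf1r 3.56e-04, Cd68 0.058 and Clec4f 0.0070; for sex in control pups, Cd68 -0.036, C1qc -0.054 and Cd163 -0.014; for age in control males, C1qa -0.10 and C1qb -0.17; and for age in PBDE males, Aif1 -0.12, Cd68 -0.13 and C1qc -0.11. Quantile normalization turned Csf1r for sex by dose to -0.011. The other Aif1 probe set gave 0.14, 0.030 and 0.071 for dose in male pups, female pups and adults, 0.064 and -0.051 for sex in control and PBDE pups, -0.11 for sex by dose, -0.074 for age by dose and -0.10 for age in PBDE males. The cause was not tested.

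Leaving out each liver gave 1 to 2 markers in male pups, 0 to 1 in female pups, 0 to 2 in adults, 3 to 5 in males of both ages, 0 to 1 for age in controls and 1 to 2 for age in PBDE males. Probe sets called ran from 597 to 1032 in adults, 365 to 703 for age by dose and 0 to 1 for sex by dose. The Gapdh difference ran from 0.54 to 0.88 in female pups and 0.28 to 0.66 in adults, and that of Actb from 0.58 to 0.89 and 0.28 to 0.69. Ranges that crossed 0 were, for dose in female pups, Csf1r -0.27 to 0.055, Cd68 -0.22 to 0.067 and Clec4f -0.13 to 0.029; for sex in control pups, Csf1r -0.031 to 0.29, Cd68 -0.10 to 0.18, C1qa -0.015 to 0.28, C1qc -0.11 to 0.14 and Cd163 -0.090 to 0.16; for sex by dose, Csf1r -0.12 to 0.20 and C1qb -0.12 to 0.27; for age by dose, Aif1 -0.020 to 0.23, C1qc -0.032 to 0.21 and Clec4f -0.055 to 0.17; for age in control males, Csf1r -0.15 to 0.023, Aif1 -0.13 to 0.025 and C1qc -0.11 to 0.060; and for age in PBDE males, Aif1 -0.069 to 0.18, Cd68 -0.018 to 0.14 and C1qc -0.048 to 0.20. Counts of list members moved by over 1.5 times in 300 of 4992 repeats.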

Other observations

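The age comparison of control males was also read for the other gene lists, at an adjusted p of 0.05 in limma. Among all genes 10.9% were higher in adults and 18.6% lower, and the list counts stand beside those shares without a test. Adults had higher signal of 4 of 8 MHC class II genes (RT1-Da by 1.06 ± 0.30, RT1-Db1 by 1.00 ± 0.26, Cd74 by 0.93 ± 0.28 and Ciita by 0.23 ± 0.08, log2 ± SE). Among 25 other resident macrophage genes 4 were higher, led by Lyz2, the macrophage lysozyme, at 1.60 ± 0.23, and Slc40a1 and Sdc3 were lower (by 0.65 ± 0.09 and 0.27 ± 0.08 on the log2 scale), counts near the shares over all genes. Csf1, the ligand of the CSF1 receptor, was 0.59 ± 0.14 higher (limma adjusted p = 0.0023) and Zeb2 fell by 0.70 ± 0.12. Of 11 endothelial genes 6 were lower and none higher, led by Stab2 (-1.22 ± 0.13). Of 12 stellate cell and fibroblast genes 9 were lower, led by Col1a2 (-2.30 ± 0.23). Of 8 erythroid genes 4 were lower, among them Slc4a1 (-1.99 ± 0.28), and 6 of 10 complement genes were higher, led by C1r (0.65 ± 0.15). Control pups and adult controls lie in different array-name sets, so age and set cannot be told apart.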
